A study of Mus musculus with 18 samples.

Results

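The comparison follows the wild-type vestibular organ of the mouse from the last days before birth to the third week of life. The vestibular organ is the balance part of the inner ear. The 6 arrays were chosen by their labels, 3 of Igf1 +/+ animals at embryonic age E18.5 and 3 of Igf1 +/+ animals at postnatal day 15 (P15), out of 18 arrays in the series. The other 12 arrays hold Igf1 +/+ organs at P90 and Igf1 -/- organs at the same 3 ages, 3 arrays in each group, and are used here only where they are named. All animals were on a hybrid Mf1 with 129/sv background, all were perfused with paraformaldehyde before the inner ear was taken out, and total RNA was amplified for an Affymetrix Mouse Gene 1.1 ST array. The titles number the arrays as biological replicates but do not say whether an array holds the organs of 1 animal or of several, so p-values cover only the spread from array to array.

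The vestibular organ senses head tilt and rotation through hair cells, whose bundles of stereocilia open ion channels when they bend. In the utricle and saccule the bundles carry a load of calcium carbonate crystals, the otoconia, held on an extracellular gel. Supporting cells surround the hair cells, dark cells secrete the potassium of the endolymph, neurons of the vestibular ganglion carry the signal to the brainstem and cerebellum, and the whole organ lies in a capsule that forms as cartilage and is replaced by bone that holds marrow.

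Values are log units of a base the sources used here do not give. The highest value, 10.03, makes e the likely base, so that 1 log unit is a 2.72-fold difference, against 2-fold for base 2. All differences below are P15 minus E18.5 between wild-type groups, ± the standard error from limma, and a gene is called higher or lower where its Benjamini-Hochberg adjusted p over 19938 genes was below 0.05. The median gene lay at 4.71. The array files hold no detection calls, so the 20th percentile of all gene values, 3.06, serves as a rough mark below which a gene is called dim here. In bulk tissue, fewer cells of a type, less RNA per cell and a larger share of RNA from other tissue cannot be told apart. After normalisation every value is relative to the other RNA on its array.

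Replicates were close to each other. Over all genes the wild-type arrays correlated at 0.986 to 0.988 within E18.5, at 0.985 to 0.987 within P15 and at 0.893 to 0.911 between the ages. The first principal component of all 18 arrays held 63.6% of the variance and placed the wild-type E18.5 arrays between -62.4 and -61.3 and the P15 arrays at 28.7, 20.1 and 32.1. P15 array 2 lay nearest to E18.5 among the P15 arrays. The description field of the wild-type P15 and P90 samples names the Igf1 -/- genotype, whereas their titles, source names and genotype entries name Igf1 +/+. Igf1 was at 5.87, 6.11 and 5.89 in the 3 libraries labelled wild type at P15 and at 5.54, 5.69 and 5.42 in the 3 labelled null. The groups do not overlap at P15, and the gap between their nearest arrays is small beside the level. At P90 Igf1 was at 5.63, 5.39 and 5.56 in the libraries labelled wild type and at 5.43, 5.51 and 5.31 in those labelled null, and these groups overlap, so Igf1 does not settle the P90 labels on which every P90 value below rests. The sources used here do not say whether the Igf1 probes lie in the deleted segment.

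Of the 19938 genes tested, 3923 were higher at P15, which is 19.7%, and 4360 were lower, which is 21.9%. The split depends on how the arrays are scaled: 3109 were higher and 5920 lower with only the array medians subtracted, and 4084 higher and 1626 lower in the values as deposited. A difference of at least 1 log unit together with a call was found for 1282 genes that were higher, 6.43%, and for 728 that were lower, 3.65%. The 3 arrays of each age did not overlap for 11513 genes, 57.7% of all, so a lack of overlap alone says little about a gene. The median difference over all genes was -0.05 after quantile normalisation, -0.18 with only the array medians subtracted and 0.11 in the values as deposited, and small differences are read against that shift. Among the 1282 rises, 319 started from an E18.5 mean below 3.06, and among the 728 falls 129 ended below it at P15, where array values have little resolution.

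The largest rises came from 2 kinds of genes, those of cerebellar neurons and those of blood cells. Neurod1, a transcription factor of neuronal differentiation, read 1.52, 2.46 and 2.20 at E18.5 and 8.06, 8.01 and 8.04 at P15. The difference was 5.98 ± 0.26 (adjusted p = 3.06e-10). Gabra6, the GABA receptor subunit of cerebellar granule cells, went from 2.33, 2.56 and 2.70 to 8.02, 7.71 and 8.19, a difference of 5.44 ± 0.15 (adjusted p = 1.11e-11). In neither gene did the ages overlap, and the E18.5 values lay below the dim mark. Cbln3 and Cbln1, synaptic organisers made by granule cells, rose by 4.19 ± 0.21 and 4.13 ± 0.20, and Ppp1r17, a phosphatase inhibitor of Purkinje cells, rose by 4.11 ± 0.16.

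Ngp, a granule protein of maturing neutrophils, read 2.10, 1.80 and 1.74 at E18.5 and 7.73, 7.60 and 7.83 at P15, a difference of 5.84 ± 0.31 (adjusted p = 1.74e-09). The other blood cell genes among the 15 largest rises were Ifitm6 (5.01 ± 0.35), Chil3 (4.53 ± 0.41), S100a8 (4.50 ± 0.30), Retnlg (4.46 ± 0.39), Lcn2 (4.19 ± 0.35) and S100a9 (4.10 ± 0.30) of myeloid cells. Prg2 of eosinophils rose by 4.13 ± 0.32, Cd79a of the B cell receptor by 4.10 ± 0.25 and Rhag of the red cell membrane by 4.05 ± 0.27. Of the 15 largest rises, 11 had an E18.5 mean below the dim mark, so their size is less well measured than their direction.

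The largest falls were led by cartilage matrix, the otoconial protein and fetal growth genes. Matn1, a cartilage matrix protein, read 8.73, 8.69 and 8.73 at E18.5 and 4.21, 4.29 and 2.76 at P15, a difference of -4.96 ± 0.37 (adjusted p = 4.77e-08), which is 143-fold on base e or 31.2-fold on base 2. Oc90, the main protein of the otoconial matrix, went from 8.44, 8.47 and 8.39 to 4.59, 4.88 and 3.74, a difference of -4.03 ± 0.21 (adjusted p = 1.93e-09). P15 array 3 was the lowest for both, and every P15 array lay more than 3 log units under every E18.5 array. Zim1, an imprinted zinc finger gene, read 8.34, 8.33 and 8.33 and then 4.59, 4.69 and 4.21, a difference of -3.84 ± 0.16. The other falls among the 15 were C1qtnf3 (-3.64 ± 0.12), Matn3 (-3.60 ± 0.18), Rtl3 (-3.45 ± 0.11), Nrk (-3.43 ± 0.13), the aggrecan gene Acan (-3.39 ± 0.15), Capn6 (-3.27 ± 0.18), the embryonic myosin Myh3 (-3.25 ± 0.21), Col9a1 (-3.18 ± 0.17), P4ha3 (-3.14 ± 0.16), the angiotensin receptor Agtr2 (-3.10 ± 0.11), Mir140 (-3.06 ± 0.31) and Epyc (-3.03 ± 0.23). Of these 15 genes, 2 had a P15 mean below the dim mark.

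**Figure D1:**
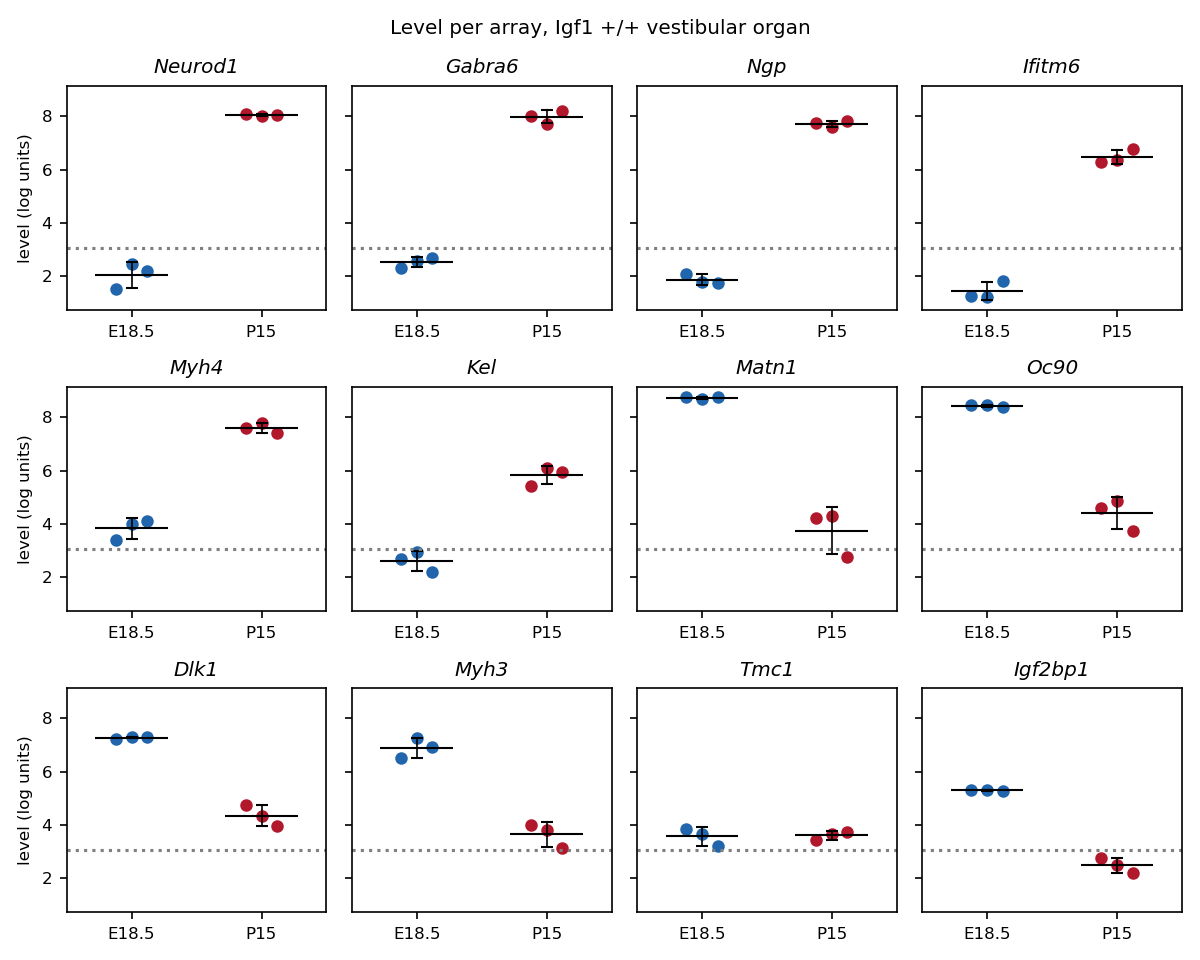
Level of 12 genes in each Igf1 +/+ array at E18.5 (blue, n = 3) and P15 (red, n = 3), in log units, with the mean (line) and SD (bar), and the dotted line at the dim mark of 3.06. Neurod1, Gabra6, Ngp, Ifitm6, Myh4 and Kel lie higher in all 3 P15 arrays, Matn1, Oc90, Dlk1, Myh3 and Igf2bp1 lie lower, and the arrays of Tmc1 overlap.

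To describe the organ by its parts, 1107 measured genes were read in 43 lists, of which 60 genes stand in more than 1 list. Counts of called members are to be read against 19.7% higher and 21.9% lower over all genes. The plot of list members shows that the medians ran from -2.24 for cartilage to 2.96 for neutrophil granule genes, against -0.05 for all genes.

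**Figure D2:**
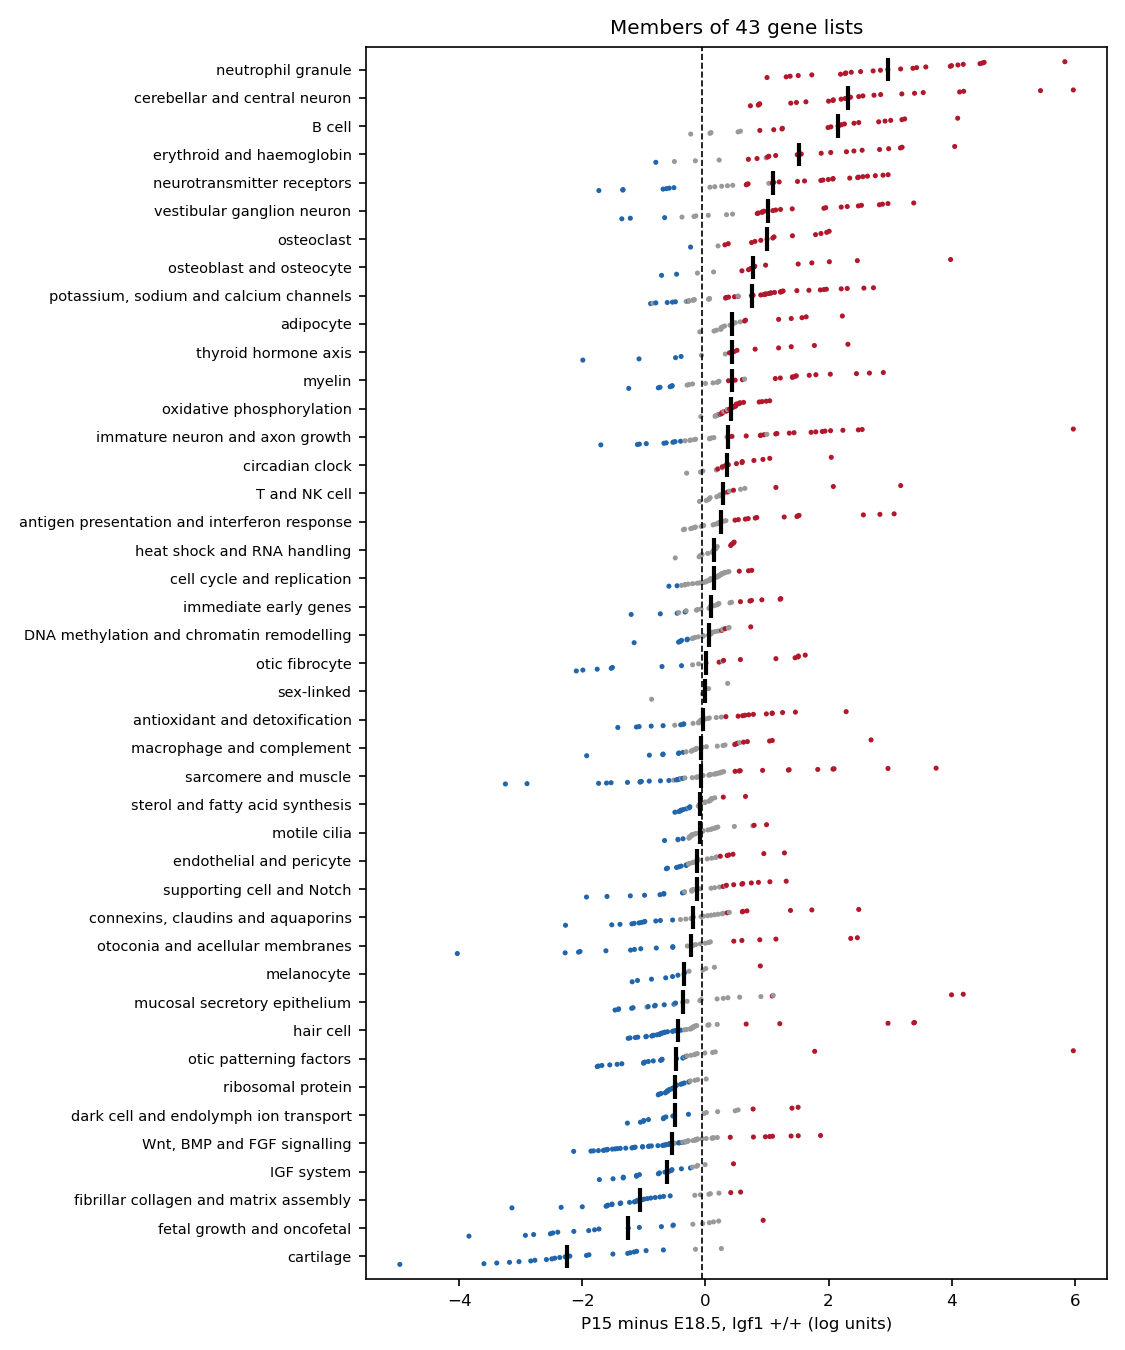
P15 minus E18.5 in Igf1 +/+ organs, in log units, for each measured member of 43 gene lists (points, red higher and blue lower at the adjusted threshold of 0.05, grey not called), with the list median (black bar) and the median of all genes at -0.05 (dashed line). Neutrophil, cerebellar and B cell genes lie furthest to the right, and cartilage, fetal growth and matrix genes furthest to the left.

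Hair cell genes were mostly lower at P15. Of 42 measured genes, 22 were lower and 5 higher, and the median was -0.44. Otof, the calcium sensor for transmitter release at the ribbon synapse, read 5.26, 5.02 and 5.02 at E18.5 and 4.12, 4.24 and 4.05 at P15, a difference of -0.97 ± 0.14 (adjusted p = 4.13e-05). Pou4f3, a transcription factor that hair cells need to survive, read 3.75, 3.52 and 3.69 and then 2.12, 2.93 and 2.24, all below the dim mark at P15, with a difference of -1.22 ± 0.26 (adjusted p = 0.00124). For both genes the ages do not overlap.

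Genes of the stereocilia bundle took part in the fall. The glutaredoxin-like Grxcr2 fell by 1.25 on the log scale, the scaffold gene Ush1c by 1.14, the bundle myosins Myo3a by 1.10 and Myo15 by 0.73, and the tip-link cadherins Cdh23 and Pcdh15 by 0.71 and 0.61. Myo7a, the motor that anchors the tip link, read 5.01, 4.95 and 5.01 and then 4.58, 4.74 and 4.46, a difference of -0.40 ± 0.11. The oncomodulin gene Ocm, a calcium buffer of striolar hair cells, fell by 0.96 and Atoh1, which starts hair cell differentiation, by 0.84. Without P15 array 3 the calls of Myo7a (adjusted p = 0.0557), Myo3a (adjusted p = 0.119) and Atoh1 (adjusted p = 0.0887) were lost. Myo3a also lost its call without E18.5 array 1 or 2 (adjusted p = 0.0585 and 0.0553), and Atoh1 without P15 array 1 (adjusted p = 0.055).

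Members of the mechanotransduction complex did not move together. Tmc2, the channel gene of immature hair cells, read 3.49, 3.53 and 3.57 at E18.5 and 2.94, 3.12 and 2.45 at P15, a difference of -0.69 ± 0.15 (adjusted p = 0.00159). Tmc1, the channel gene of mature hair cells, read 3.87, 3.67 and 3.20 and then 3.42, 3.67 and 3.76. Its difference was 0.04 ± 0.21 with a 95% interval of -0.41 to 0.49, and the ages overlap. The transduction genes Tmie (0.19 ± 0.12) and Lhfpl5 (-0.23) and the transcription factor Gfi1 (0.06 ± 0.14, interval -0.23 to 0.35) were not called either.

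The 5 hair cell list genes that were higher were the calcium-binding protein genes Calb1 (3.40 ± 0.15), Calb2 (3.38 ± 0.25), Pvalb (2.97 ± 0.12) and Pcp4 (1.21 ± 0.10) and the actin-binding gene Xirp2 (0.66 ± 0.19). These genes are also made outside the ear: Calb1, Calb2, Pvalb and Pcp4 in cerebellar neurons, and Pvalb and Xirp2 in skeletal muscle. The 25 genes of cerebellar and central neurons averaged 3.91 to 4.00 per array at E18.5 and 6.33 to 6.59 at P15, and the part of these neurons in the rises of the calcium-binding genes was not tested.

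Genes of supporting cells and of the Notch pathway, through which hair cells keep their neighbours from the hair cell fate, went both ways. Of 28 measured genes 9 were higher and 9 lower, with a median of -0.14 that turned to 0.07 in the values as deposited. Sox9, a factor of otic progenitors and of chondrocytes, read 7.16, 7.23 and 7.23 at E18.5 and 5.24, 5.36 and 5.23 at P15, a difference of -1.93 ± 0.06 (adjusted p = 4.11e-11). Fgfr3 fell by 1.60 ± 0.10, Gata3 by 1.22 ± 0.19, the Notch ligand Jag1 by 0.99 ± 0.11 and the receptor Notch1 by 0.68. Sox9 and Fgfr3 are also chondrocyte genes, and the 24 cartilage genes averaged 7.13 to 7.22 at E18.5 and 4.94 to 5.28 at P15, a move in the same direction whose part was not tested.

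The supporting cell factor Sox2 read 6.13, 5.89 and 5.93 and then 5.39, 5.81 and 5.74, a difference of -0.34 ± 0.14 that was not called (adjusted p = 0.0656) although the ages do not overlap. The Notch effectors Hes1 (-0.09) and Hes5 (-0.22) and the connexin gene Gjb2 (0.09 ± 0.12) were not called, and the second cochlear and vestibular connexin, Gjb6, was higher by 0.61. The rises were led by Prox1 (1.31 ± 0.19), the glutamate transporter Slc1a3 (1.05 ± 0.11) and Fabp7 (0.86). These 3 are also genes of the cerebellum, where Slc1a3 and Fabp7 mark astroglia. Sox2 was called without P15 array 2 (-0.42, adjusted p = 0.0433), and Fabp7 lost its call without E18.5 array 2 or 3 or P15 array 1 or 2, with an adjusted p of up to 0.14.

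Transcription factors that pattern the otic vesicle and the tissue around it were lower in 18 of 29 cases, with a median of -0.47. Tbx18 of the periotic mesenchyme went from 7.02, 7.08 and 6.97 to 5.15, 5.55 and 5.09, a difference of -1.76 ± 0.15. Eya1, whose loss leaves mice without an inner ear, read 7.18, 7.19 and 7.15 and then 5.57, 5.72 and 5.58, a difference of -1.55 ± 0.11. The ages do not overlap for either gene. Six2 (-1.74 ± 0.16), Meis2 (-1.68 ± 0.15), Emx2 (-1.43), Isl1 (-1.36 ± 0.20), Hmx3 (-1.0) and Hmx2 (-0.93) fell as well. Pax2 (-0.17), Gbx2 (0.12) and Neurog1 (0.16) were not called. The 2 that rose, Neurod1 and Otx2 (1.77 ± 0.16), are also factors of granule cells and of the choroid plexus.

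Several structural genes of the otoconia and of the acellular gels fell, led by Oc90 (-4.03), the gel proteins Tectb (-2.06) and Tecta (-2.04) and the otoconial collagen-like Otol1 (-1.62), followed by Otogl (-1.21), Otog (-1.15) and the attachment protein Otoa (-1.05). Tecta read 6.22, 5.75 and 5.95 at E18.5 and 3.71, 4.31 and 3.80 at P15. Otol1 read 5.41, 5.18 and 5.30 and then 3.50, 3.89 and 3.65. Neither overlaps between the ages. Of the genes that start mineralisation, the proton channel gene Otop1 (-0.29) and the oxidase genes Nox3 (-0.08) and Cyba (interval -0.28 to 0.28) were not called, and their partner Noxo1 fell by 0.80.

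In all, 11 of the 24 genes in this list were lower and 6 higher, with a median of -0.24. Among the rises were Otos (otospiralin, 1.15 ± 0.11), the gel protein Ceacam16 (0.88), the calcium pump Atp2b2 (2.36 ± 0.15) and Dmp1 (2.47 ± 0.20). Atp2b2 is also the main calcium pump of Purkinje and granule cells, and Dmp1 is a bone matrix gene, so both rose alongside the cerebellar and osteocyte genes described below, whose part in these rises was not tested.

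Ion transport genes of dark cells and of the endolymph were lower in 11 of 19 cases and higher in 3, with a median of -0.50. The potassium channel pair of the dark cell apex fell, Kcne1 from 4.05, 4.21 and 4.01 to 3.41, 3.74 and 3.63 (-0.50 ± 0.12) and Kcnq1 from 4.43, 4.46 and 4.34 to 4.19, 4.10 and 4.12 (-0.27 ± 0.10, adjusted p = 0.0346). Bsnd, the chloride channel subunit of the dark cell base, fell by 0.68 ± 0.15. The basolateral cotransporter Slc12a2 differed by 0.02 and was not called. Esrrb (-1.27 ± 0.22), Car12 (-1.06 ± 0.22), the endocytic receptor Lrp2 (-1.01 ± 0.15), Foxi1 (-1.0 ± 0.14), the proton pump subunits Atp6v1b1 (-0.92) and Atp6v0a4 (-0.64) and pendrin, Slc26a4 (-0.53), were lower. The sodium pump subunits Atp1b1 (1.51 ± 0.12) and Atp1b2 (1.41 ± 0.14) and the potassium channel Kcnj10 (0.77) were higher, and all 3 are also abundant in brain. Kcnq1 lost its call without any 1 of the 6 arrays except E18.5 array 3, with an adjusted p of up to 0.101, and Slc26a4 without P15 array 1 (adjusted p = 0.0644).

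Junction and water channel genes were mixed, with 12 of 34 lower, 7 higher and a median of -0.20. The falls held epithelial claudins: Cldn6 (-2.27 ± 0.14), Cldn22 (-1.52 ± 0.17), Cldn7 (-1.39 ± 0.12), Cldn9 (-1.19), Cldn4 (-1.16), Cldn8 (-1.08) and Cldn3 (-1.0). Cldn6, a claudin of embryonic epithelia, read 5.60, 5.56 and 5.74 and then 3.65, 3.41 and 3.02. Cldn14 (-0.23) was not called, except in the fit without P15 array 1 (-0.32, adjusted p = 0.0337). The rises were led by Aqp4 (2.49 ± 0.21), the water channel of astroglia and of supporting cells, and by the neuronal connexin Gjd2 (1.73 ± 0.27).

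Fibrocyte and periotic mesenchyme genes divided evenly, with 8 of 19 higher and 7 lower and a median of 0.01 that turned to -0.13 with only the array medians subtracted and to -0.02 without P15 array 1. Otor, a secreted protein of the otic capsule and fibrocytes, fell from 8.30, 8.24 and 8.31 to 6.06, 6.36 and 6.14, by 2.10 ± 0.17. Crym (-1.99 ± 0.14) and Pou3f4 (-1.53 ± 0.18), whose loss in the mesenchyme causes deafness, also fell. Coch, the main fibrocyte matrix protein, rose from 7.27, 7.30 and 7.33 to 7.56, 7.59 and 7.63, by 0.30 ± 0.09 (adjusted p = 0.018). Otos, Slc4a11 (1.51 ± 0.21) and Ptgds (1.62 ± 0.15) rose more. Pigment cell genes fell in 7 of 13 cases, among them Tyrp1 (-1.19 ± 0.20), Pmel (-1.10 ± 0.11) and Dct (-0.53 ± 0.17), while the receptor Kit, which other cells also carry, was higher by 0.89 ± 0.13. Coch lost its call without E18.5 array 1 (adjusted p = 0.0561) or P15 array 3 (adjusted p = 0.0575), and Dct without array 1 of either age (adjusted p = 0.0716 at E18.5 and 0.0892 at P15).

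Genes that all neurons share rose, whereas several factors of sensory ganglia, which other cells make too, did not. Of 28 genes written for the vestibular ganglion, 19 were higher and 3 lower, with a median of 1.02, and 10 of the 28 stand in another list as well. Snap25, a synaptic vesicle fusion gene of all neurons, read 4.57, 4.36 and 4.43 at E18.5 and 7.42, 6.88 and 7.68 at P15, a difference of 2.88 ± 0.23 (adjusted p = 8.18e-08). Vsnl1 (2.97 ± 0.21), Rbfox3, the neuronal nuclear antigen (2.83 ± 0.15), Syt1 (2.53 ± 0.16) and Stmn2 (2.48 ± 0.24) rose by similar amounts. The neurofilament genes rose less, Nefh by 0.92 and Nefl from 5.30, 4.75 and 4.90 to 5.60, 5.96 and 5.92 (0.84 ± 0.27, adjusted p = 0.0191), and Nefm was not called (0.44). Nefl lost its call without array 2 or 3 of either age, with an adjusted p of up to 0.075.

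Factors, filaments and receptors of sensory ganglia did not move together, and they are not confined to ganglia. Isl1 and Gata3 were also named above, with the otic patterning and the supporting cell genes. Isl1 fell from 5.30, 5.16 and 5.12 to 3.42, 3.95 and 4.14, by 1.36 ± 0.20, and Gata3 fell by 1.22 ± 0.19. Pou4f1 (0.05) was not called. Peripherin, Prph, read 5.01, 4.81 and 4.93 and then 4.20, 4.44 and 4.98, a difference of -0.38 ± 0.41 with an interval of -1.26 to 0.50, and its P15 arrays spread widely. The neurotrophin receptors Ntrk2 (0.93 ± 0.08) and Ntrk3 (1.10) were higher.

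All 25 genes written for cerebellar and central neurons were higher, with a median of 2.31, and 21 of them by at least 1 log unit. None was dim at both ages. Besides those already named, Pax6 of granule cell precursors went from 2.86, 3.42 and 2.95 to 6.69, 6.61 and 6.54 (3.54 ± 0.25), the glutamate transporter Slc17a7 rose by 3.19, the astroglial Gfap by 2.74, and the Purkinje cell gene Pcp2 from 3.36, 3.59 and 3.22 to 5.89, 5.55 and 5.80 (2.36 ± 0.27). P15 array 2 was the lowest of the P15 arrays for Gabra6, Cbln3, Cbln1, Pcp2 and Snap25. Over the whole list the array averages were 6.59, 6.33 and 6.55 at P15. The sources used here do not say how much cerebellum the preparations held at either age, and its part in the neuronal rises was not tested.

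Genes of immature neurons and axon growth were higher in 19 of 40 cases and lower in 9, with a median of 0.37. Dcx, a microtubule protein of migrating neurons, rose by 1.16, Cntn2 by 2.55 ± 0.13 and Elavl3 by 2.23 ± 0.21. The guidance ligands Sema3c (-1.70 ± 0.13), Sema3d (-1.10 ± 0.15) and Sema3a (-1.07) and the receptors Robo1 (-0.96) and Nrp1 (-0.64) fell. The tubulin Tubb2b of growing axons differed by 0.14 and was not called, whereas Tubb4a of mature neurons and oligodendrocytes rose by 2.37 ± 0.21.

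Ion channel and receptor genes rose widely. Of 45 voltage-gated and potassium channel genes 28 were higher and 6 lower, with a median of 0.75. Kcnc1, the fast-spiking potassium channel, read 3.13, 3.43 and 3.10 and then 6.07, 5.57 and 6.21 (2.73 ± 0.15). Among sodium channels the neonatal form Scn3a fell by 0.89 ± 0.13 while Scn1a (2.30 ± 0.20), Scn8a (2.21 ± 0.14) and Scn2a (1.97 ± 0.16) rose. Cacna1d, a calcium channel gene of the hair cell ribbon synapse that is not confined to hair cells, was higher by 0.53.

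Of 34 transmitter receptor genes 21 were higher and 7 lower, with a median of 1.10. The largest rises were Gabrb2 (2.97 ± 0.14), Grik2 (2.89 ± 0.14) and Gria2 (2.76 ± 0.19). The NMDA receptor subunits Grin2b (1.88 ± 0.19) and Grin2a (1.50 ± 0.23) both rose, and Slc12a5, the chloride exporter that makes GABA inhibitory, rose by 2.49 ± 0.14. The 3 largest falls, Chrnd (-1.73 ± 0.19), Chrna1 (-1.34 ± 0.23) and Chrng (-1.34), encode subunits of the muscle acetylcholine receptor. The efferent receptor genes of hair cells, Chrna9 (-0.22) and Chrna10 (-0.30), were not called.

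Myelin genes were higher in 15 of 30 cases and lower in 6, with a median of 0.43. Mobp, a myelin protein gene of oligodendrocytes, which myelinate the brain, read 3.07, 2.85 and 2.62 and then 5.84, 5.33 and 6.04 (2.89 ± 0.18). Mog (2.03 ± 0.21), Olig1 (1.79 ± 0.19) and Opalin (1.14 ± 0.25), also of oligodendrocytes, rose as well, and so did Mag (2.45 ± 0.20) and Mbp (1.69 ± 0.07), which Schwann cells make too. Of the genes that mark Schwann cells, Ncmap fell from 5.62, 5.59 and 5.59 to 4.30, 4.50 and 4.27 (-1.24 ± 0.12), and Pmp22 (interval -0.32 to 0.32), Egr2 (0.12) and Drp2 (-0.26) were not called. Sox10, shared by both kinds of glia, fell by 0.74.

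Cartilage genes fell as a block. Of 24 measured genes 22 were lower, 20 of them by at least 1 log unit, and the median was -2.24. The capsule's main collagen, Col2a1, read 8.82, 8.79 and 8.82 at E18.5 and 7.04, 7.10 and 6.62 at P15, a difference of -1.89 ± 0.15 (adjusted p = 8.37e-08). Aggrecan, Acan, read 8.23, 8.15 and 8.20 and then 4.74, 4.98 and 4.69. No P15 array reached an E18.5 array for either gene. Link protein Hapln1 (-2.84 ± 0.18), Cnmd (-2.77), Comp (-2.49), Col9a3 (-2.45), Col9a2 (-2.37) and Col10a1 of hypertrophic chondrocytes (-2.20) fell, as did the regulators Sox5 (-1.50), Sox6 (-1.12) and Ihh (-1.16). The 2 genes that were not called were Runx3 (-0.16) and the lubricin gene Prg4 (0.26).

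Matrix assembly genes of connective tissue were lower in 23 of 30 cases, with a median of -1.06. Fbn2, the fetal fibrillin, went from 7.60, 7.62 and 7.58 to 5.28, 5.45 and 5.04 (-2.34 ± 0.12). Col14a1 (-2.0 ± 0.09), Eln (-1.61 ± 0.18), Thbs2 (-1.60 ± 0.10), Postn (-1.58 ± 0.23), Col6a3 (-1.52) and Col3a1 (-0.99) fell, as did the collagen-processing genes P4ha1 (-1.12), Serpinh1 (-1.10), Loxl1 (-1.03) and Plod1 (-0.94). Col1a1, the collagen of bone, rose from 8.72, 8.76 and 8.72 to 9.26, 9.13 and 9.05, by 0.41 ± 0.15 (adjusted p = 0.0369), and Col1a2 (0.22) and Sparc (0.08) were not called. Col1a1 lost its call without any 1 of the 6 arrays except P15 array 3, with an adjusted p of up to 0.121, and Sparc stood at -0.21 with only the array medians subtracted.

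Genes of bone-forming and bone-resorbing cells rose. Of 15 osteoblast and osteocyte genes 11 were higher and 2 lower, with a median of 0.78. The rises were largest for osteocyte genes: Mepe went from 1.69, 2.57 and 1.02 to 5.62, 6.09 and 5.52 (3.98 ± 0.35), Dmp1 from 5.17, 4.96 and 4.95 to 7.45, 7.87 and 7.17 (2.47 ± 0.20), and Sost, the Wnt inhibitor secreted by osteocytes, from 3.44, 3.35 and 3.22 to 5.09, 5.16 and 4.96 (1.73 ± 0.19). Osteoblast genes changed less, Ibsp by 1.51 ± 0.24, Alpl by 0.78 and Sp7 by 0.59. The 2 lower genes were Omd, which fell the more, and Dlx5 (-0.47 ± 0.14). The lowest difference in the list was -0.71. P15 array 2 was the highest P15 array for Mepe, Dmp1, Sost and Ibsp. Dlx5 lost its call without E18.5 array 1 (adjusted p = 0.0524) or P15 array 3 (adjusted p = 0.0838).

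Osteoclast genes were higher in 13 of 15 cases, with a median of 1.00. Cathepsin K, Ctsk, read 5.37, 5.20 and 5.33 and then 7.24, 7.66 and 7.03 (2.01 ± 0.22). Acp5 (1.88 ± 0.21), Atp6v0d2 (1.79 ± 0.19), Oscar (1.41 ± 0.17) and Dcstamp (1.09) rose, and the regulator Nfatc1, which other cells use as well, fell by 0.24 ± 0.08, a call lost without E18.5 array 2 or 3 or P15 array 1 or 3, with an adjusted p of up to 0.114. Cartilage, bone and osteoclast genes therefore gave 3 different medians, -2.24, 0.78 and 1.00, in the same 6 arrays.

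Blood cell genes formed the other large block of rises. All 25 neutrophil genes were higher, each by at least 1 log unit, with a median of 2.96. They held the primary granule enzymes Mpo (3.37), Prtn3 (3.17) and Elane (2.96), the secondary granule genes Ltf, Camp (2.84) and Ngp, the collagenase Mmp8 (3.98) and the chemokine receptor Cxcr2 (3.43). Ltf read 3.57, 3.11 and 3.45 at E18.5 and 7.45, 7.21 and 7.46 at P15 (4.00 ± 0.25). Averaged over the list, the arrays stood at 2.88 to 3.03 at E18.5 and 5.90 to 6.12 at P15.

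Of 22 erythroid genes 17 were higher, 15 by at least 1 log unit, and 1 was lower, with a median of 1.52. Kel, a blood group protein, read 2.71, 2.96 and 2.22 and then 5.44, 6.08 and 5.95 (3.19 ± 0.30). The anion exchanger Slc4a1 (3.17 ± 0.36), Hemgn (2.98 ± 0.26), Epb42 (2.83 ± 0.30), Gata1 (2.29), the master factor of the lineage, and Klf1 (1.56) rose too. Alas2, the first enzyme of haem synthesis, read 6.03, 5.87 and 5.74 and then 6.72, 7.0 and 6.88 and was not called (0.99 ± 0.42, adjusted p = 0.0758), although the arrays do not overlap. The embryonic globin Hba-x fell by 0.81 ± 0.16. P15 array 1 was the lowest of the P15 arrays for Kel, Slc4a1, Hemgn, Epb42 and Rhag.

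B cell genes were higher in 18 of 23 cases, with a median of 2.16. Cd79a read 1.59, 1.56 and 1.17 and then 5.70, 5.49 and 5.42. Genes of B cell precursors were among them, namely Dntt (2.81 ± 0.31), Igll1 (2.41), Rag1 (2.18), Rag2 (2.16) and Vpreb3 (2.92 ± 0.15), next to Ms4a1 (3.19 ± 0.21) and Pax5 (2.49). The 5 members not called were Vpreb1 (0.57), Cr2 (0.53), Ebf1 (0.09), Jchain (0.07) and Vpreb2 (-0.24). Cr2 was called without array 2 of either age (adjusted p = 0.0222 at E18.5 and 0.0164 at P15). Of 18 T and NK cell genes 5 were higher, 3 of them by at least 1 log unit, and none was lower. They were the interleukin 7 receptor Il7r (3.17 ± 0.15), which B cell precursors also carry, Nkg7, Cd3g, Il2rb and Cd4. Cd3g lost its call without P15 array 2 or 3 (adjusted p = 0.0525 and 0.0602). Il2rb lost its call without array 2 of either age or P15 array 3, with an adjusted p of up to 0.125. Cd3e (-0.10) and Cd8a (0.18) were not called, and 7 of the 18 were dim at both ages.

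Macrophage and complement genes were mixed, with 8 of 29 higher and 7 lower and a median of -0.07 that turned to 0.14 in the values as deposited and to 0.01 without E18.5 array 3. Lyz2, of all myeloid cells, rose by 2.69 ± 0.18. Cd68 of the lysosome rose from 5.45, 5.55 and 5.73 to 6.71, 6.91 and 6.24 (1.04 ± 0.15), and the protease gene Ctss (0.68 ± 0.12) and the receptor gene Csf1r (0.48 ± 0.13) rose less. The largest falls were those of Lyve1 from 6.10, 6.33 and 6.30 to 4.35, 4.34 and 4.27 (-1.93 ± 0.11), Mrc1 (-0.91 ± 0.12), Cd163 (-0.69 ± 0.13) and Folr2 (-0.69). Resident tissue macrophages make these genes, but Lyve1 and Mrc1 are not confined to them. Adgre1 (-0.05) and the complement genes C1qa (0.02) and C1qb (-0.07) were not called. The class II antigen presentation genes Cd74 (3.07 ± 0.32), H2-Aa (2.83 ± 0.26) and H2-Ab1 (2.57 ± 0.26) rose, within 13 of 31 genes of antigen presentation and the interferon response that were higher and none lower. B cells carry these genes too.

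The promoters of the blood cell genes were set beside the rises, because members of each lineage moved together. The promoter table of RefSeq (GRCm38.p6) gave a window from 250 bases before to 50 bases after the first listed start for 15614 of the tested genes. The letters AGATAA are 1 form of the core bound by GATA factors, and other forms were not counted. These letters stood on either strand in 9 of 19 erythroid promoters, 47.4%, against 9.55% of all 15614. The letters TTGCNNAA, read by C/EBP factors, stood in 9 of 22 neutrophil promoters, 40.9%, against 9.68% of all. The letters GAGGAAGT, read by the ETS factor PU.1, stood in 6 of the same 22, 27.3%, against 2.73%. In the 17 promoters of cerebellar and central neuron genes the shares of these 3 motifs were 5.88%, 5.88% and 0%. The GATA letters also stood in 18.2% of the neutrophil promoters. Of the other motifs read in the same way, the letters AACAAT, read by SOX factors, stood in 1 of 18 cartilage promoters, 5.56%, against 8.67% of all. No motif contains another, they were chosen with values in view, and a match is a description of the sequence.

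The promoter with the largest rise among those with the C/EBP letters was that of Ngp, which carries them at 2 places, once on each strand, in capitals. It lies on the plus strand of GRCm38.p6 at chr9:110419558-110419857, and no PU.1 letters are in this window.
Ngp: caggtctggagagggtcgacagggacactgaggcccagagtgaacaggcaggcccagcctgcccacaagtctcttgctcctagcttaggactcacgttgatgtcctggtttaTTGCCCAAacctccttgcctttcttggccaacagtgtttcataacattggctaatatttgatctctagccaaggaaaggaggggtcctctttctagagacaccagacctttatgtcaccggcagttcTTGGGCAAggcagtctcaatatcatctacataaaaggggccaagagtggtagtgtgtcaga

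The same choice for the GATA letters gave Kel, on the minus strand at chr6:41704276-41704575, with the letters once, in capitals. Other forms of the GATA core are left unmarked.
Kel: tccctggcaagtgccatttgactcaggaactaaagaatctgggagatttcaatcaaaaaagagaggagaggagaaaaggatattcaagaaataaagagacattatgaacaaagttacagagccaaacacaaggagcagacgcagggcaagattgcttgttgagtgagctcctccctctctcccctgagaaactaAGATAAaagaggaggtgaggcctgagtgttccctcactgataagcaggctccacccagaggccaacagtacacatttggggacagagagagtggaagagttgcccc

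Skeletal muscle genes went both ways, with fetal forms lower and several adult forms higher. Of 51 genes 11 were higher and 17 lower, with a median of -0.07 that turned to 0.06 in the values as deposited and to 0.06 without E18.5 array 2. The embryonic and neonatal myosin heavy chains fell, Myh3 from 6.52, 7.26 and 6.91 to 4.00, 3.81 and 3.13 (-3.25 ± 0.21) and Myh8 from 7.40, 7.88 and 7.69 to 5.03, 4.99 and 4.27 (-2.90 ± 0.18). The adult fast forms rose, Myh4 from 3.40, 3.99 and 4.11 to 7.58, 7.77 and 7.40 (3.75 ± 0.24), Myh1 by 2.09 ± 0.19 and Myh2 by 1.82. Neither pair of ages overlaps in Myh3 or Myh4. The skeletal actin gene Acta1 was not called (0.23 ± 0.16, interval -0.11 to 0.58), and the creatine kinase gene Ckm was higher by 0.48 ± 0.18 (adjusted p = 0.0387). E18.5 array 1 was the lowest E18.5 array for Myh3, Myh8, Myh4, Acta1 and Ckm, and without it Ckm was not called (0.28, adjusted p = 0.21). Ckm also lost its call without P15 array 1 (adjusted p = 0.14) or P15 array 3 (adjusted p = 0.0643).

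The slow and cardiac forms that fetal muscle uses fell as well, namely Tnnt2 (-1.73), Actc1 (-1.61), Tnni1 (-1.06), Tnnc1 (-1.06) and Myh7 (-0.59). Myh7 lost its call without array 2 or 3 of either age, with an adjusted p of up to 0.194. The myogenic factors fell too, Myog (-1.27), Myf5 (-1.04) and Myod1 (-0.47), with the fetal acetylcholine receptor subunit Chrng, whose adult partner Chrne (0.15) was not called. The letters CAGCTG, an E-box of the kind that myogenic factors read, stood in 19 of 42 muscle promoters, 45.2%, against 15.9% of all promoters. Myh4, the called muscle gene with the largest difference among those with the letters, carries them once, on the plus strand of chr11:67237562-67237861, in capitals.
Myh4: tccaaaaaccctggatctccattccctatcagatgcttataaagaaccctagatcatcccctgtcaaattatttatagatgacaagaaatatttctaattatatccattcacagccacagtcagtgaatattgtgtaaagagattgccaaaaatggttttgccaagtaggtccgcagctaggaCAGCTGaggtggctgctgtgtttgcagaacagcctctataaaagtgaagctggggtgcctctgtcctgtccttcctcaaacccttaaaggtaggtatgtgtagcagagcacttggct

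Such a change of forms was looked for in 25 pairs of genes of the same family, drawn in the plot of the pairs. In each pair 1 gene was set down as the early form and 1 as the late form. Over all genes 21.9% were lower and 19.7% higher. In 6 pairs the early gene was lower and the late gene higher: Myh3 and Myh4, Myh8 and Myh1, Scn3a and Scn1a, the deiodinases Dio3 (-0.48) and Dio2 (0.39), the Polycomb genes Cbx2 (-0.40) and Cbx7 (0.74), and Ocm and Pvalb. The pair of Ocm and Pvalb does not show a change of forms within a cell type. Ocm was read above as a gene of striolar hair cells, and Pvalb is also made in cerebellar neurons and skeletal muscle. In 9 pairs the early gene was lower and the late gene not called, as for Tmc2 and Tmc1 or Tnni1 and Tnni2 (0.25). In 4 pairs both genes were higher, as for Grin2b and Grin2a or Atp2a2 (0.67) and Atp2a1 (1.36), in 2 pairs only the late gene was called and higher, and in 2 neither was called. The 2 others were Cox6a1 (0.56) with Cox6a2 (0.36, not called) and Glra2 (2.49) with Glra1 (0.26, not called), where the early gene was the one that rose. Dio3 lost its call without P15 array 1 (adjusted p = 0.066), and Dio2 without any 1 of the 6 arrays except E18.5 array 1, with an adjusted p of up to 0.0904. Cox6a2 was called without E18.5 array 3 (adjusted p = 0.0462) or P15 array 2 (adjusted p = 0.0377).

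**Figure D3:**
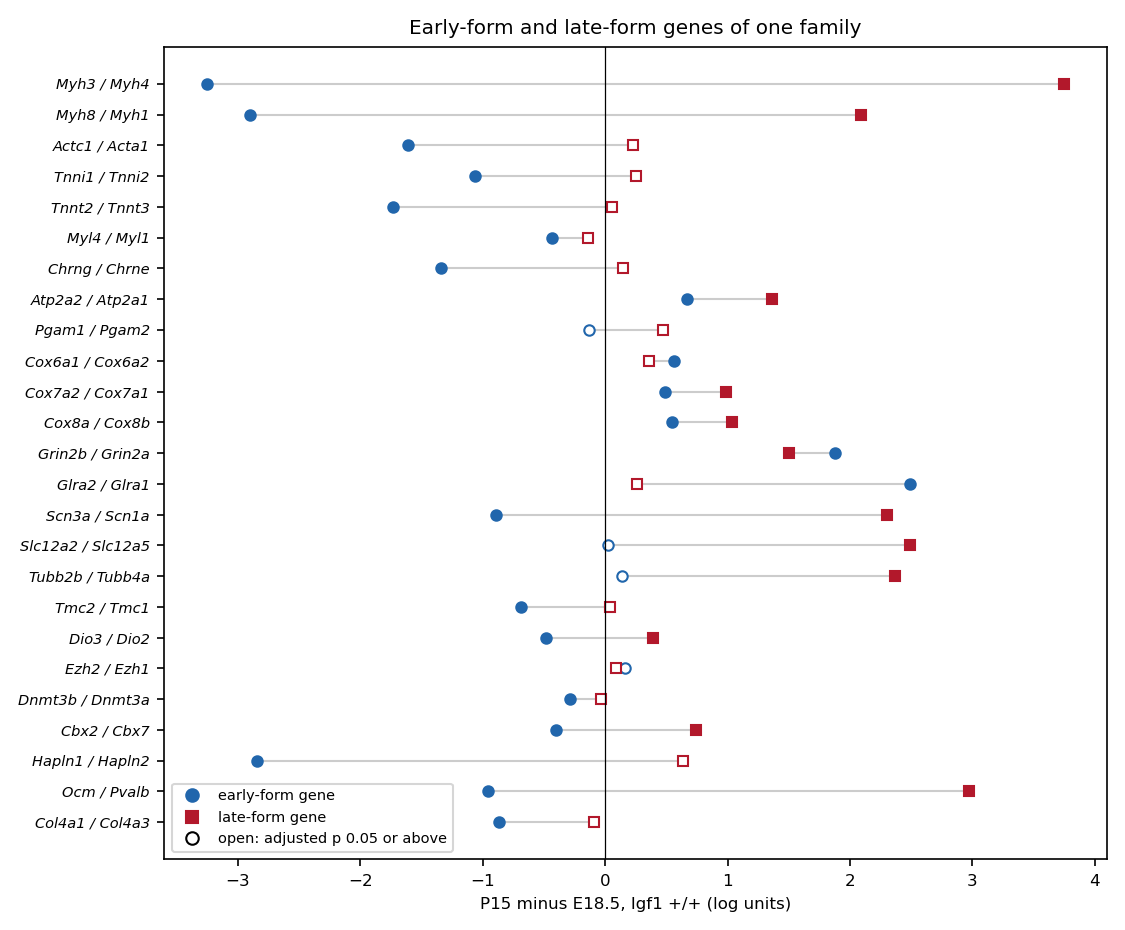
P15 minus E18.5 in Igf1 +/+ organs, in log units, for 25 pairs of an early-form gene (circle) and a late-form gene (square) of a family, with filled marks where the gene was called and open marks where it was not. Myh3 and Myh4 lie furthest apart, at -3.25 and 3.75, while the 2 genes of the Ezh2 and Ezh1 pair lie near 0.

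Growth genes of fetal life fell. Of 21 genes 14 were lower, 12 of them by at least 1 log unit, and 1 was higher, with a median of -1.25. The imprinted growth factor gene Igf2 read 8.13, 8.17 and 8.19 at E18.5 and 6.32, 6.38 and 6.10 at P15, a difference of -1.89 ± 0.10 (adjusted p = 2.03e-09). Dlk1 went from 7.23, 7.28 and 7.28 to 4.73, 4.34 and 3.95 (-2.92 ± 0.24), and the oncofetal RNA-binding gene Igf2bp1 from 5.30, 5.30 and 5.27 to 2.78, 2.50 and 2.22 (-2.79 ± 0.14). In these 3 genes the E18.5 arrays lie close together and far above every P15 array. Plagl1 (-2.52 ± 0.13), Peg10 (-2.48 ± 0.09), Cdkn1c (-2.40 ± 0.11), Mest (-2.14 ± 0.12), Grb10 (-1.80), Peg3 (-1.73 ± 0.10) and Hmga2 (-1.07) fell too. Lin28b (0.22) and Mycn (0.13) were not called, and Lin28a was higher by 0.94 ± 0.25.

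The IGF system fell with them in 15 of 20 genes, with a median of -0.62. Igf1 itself read 7.02, 7.07 and 6.98 and then 5.87, 6.11 and 5.89, a difference of -1.07 ± 0.12 (adjusted p = 2.35e-06), without overlap. Of its receptors, Igf1r (-0.75 ± 0.08) and the clearance receptor Igf2r (-1.33 ± 0.07) fell, and Insr fell by 0.24 ± 0.08, a call lost without any 1 of the 6 arrays except P15 array 3, with an adjusted p of up to 0.13. The adaptor Irs1 fell by 1.12 ± 0.08, while Irs2 was not called (interval -0.23 to 0.22). The growth hormone receptor Ghr (-1.12 ± 0.13) and its target Socs2 (-0.54 ± 0.08) were lower.

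Among the binding proteins the falls were those of Igfbp2 (-1.50 ± 0.16), Igfbp3 (-1.33 ± 0.11), Igfbp4 (-0.76 ± 0.12), Igfbp5 (-0.55 ± 0.10) and Igfbp7 (-0.39 ± 0.11). Igfbp6, which prefers IGF2, was the only member that rose, from 5.12, 5.19 and 5.07 to 5.64, 5.65 and 5.45 (0.46 ± 0.07). Of the proteases that free IGFs from these proteins, Pappa2 fell from 5.17, 5.18 and 5.11 to 3.37, 3.46 and 3.45 (-1.72 ± 0.16), and Pappa was not called (-0.21 ± 0.13). Igfbp1 (-0.14 ± 0.15) and Igfals (-0.13 ± 0.11) were not called, and Igfbp7 lost its call without P15 array 3 (adjusted p = 0.0594).

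Ligands, receptors and antagonists of the Wnt, BMP, TGF-beta and FGF pathways were lower in 37 of 65 cases and higher in 8, with a median of -0.54. The secreted Wnt antagonists Sfrp2 (-2.14 ± 0.21), Sfrp1 (-1.86 ± 0.16), Sfrp5 (-1.66 ± 0.11) and Frzb (-1.19) fell, with the ligand Wnt5a (-0.92), the enhancers Rspo3 (-1.17) and Rspo2 (-1.14) and the targets Axin2 (-0.61) and Lef1 (-0.42). Sfrp2 read 7.40, 7.30 and 7.35 and then 5.34, 5.18 and 5.12. Fgf10 (-1.43), which the semicircular canals need to form, Fgf16 (-1.60), the receptor Fgfr4 (-1.82 ± 0.10) and Tgfb2 (-1.46) and Bmp4 (-0.67) fell. The rises were Wnt7a (1.87 ± 0.19), the antagonists Dkk1 (1.51 ± 0.15), Sfrp4 (1.39) and Wif1 (0.97), and Fgf1 (1.09), Tgfb1 (1.04), Fgf9 (0.78) and Fgf13 (0.40). Wnt7a is also a granule cell gene, and Dkk1 and Sfrp4 are also osteoblast genes. Fgf13 lost its call without any 1 of the 6 arrays, with an adjusted p of 0.0567 to 0.108.

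MicroRNA genes on this array report the precursor or host transcript, not the mature microRNA. MicroRNAs are short RNAs that pair with messenger RNAs through a seed of bases 2 to 8. Of 272 measured microRNA genes 94 were lower, 52 by at least 1 log unit, and 25 higher, 14 by at least 1, while 73 were dim at both ages. An imprinted region of chromosome 12, between Dlk1 and Dio3, held 38 of the 94 falls. Of the 39 measured microRNA genes there, 38 were lower and none higher, with a median of -1.39. Of the other 233, 56 were lower and 25 higher, with a median of -0.17. This split by region was chosen after values had been seen, and genes of this region share long host transcripts, so they are not independent.

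The long transcripts of that region fell alongside. Meg3 went from 8.12, 8.26 and 8.11 to 7.53, 7.09 and 7.73 (-0.71 ± 0.16), Rian from 7.10, 7.25 and 7.05 to 5.63, 5.37 and 6.14 (-1.42 ± 0.16), and Rtl1 from 4.94, 5.18 and 4.84 to 3.75, 3.58 and 3.46 (-1.39 ± 0.13). P15 array 3 was the highest of the P15 arrays for Meg3 and Rian and the lowest for Rtl1, which is expressed from the paternal copy while Meg3 and Rian are expressed from the maternal copy. Mir323 read 6.06, 6.10 and 6.22 and then 3.26, 2.56 and 4.29 (-2.76 ± 0.30), and Mir376c (-2.38 ± 0.28), Mir379 (-2.23 ± 0.37), Mir380 (-2.11 ± 0.20), Mir377 (-2.02 ± 0.15) and Mir411 (-1.95) fell as well. Mir376a (-0.46 ± 0.24) was the member not called. P15 array 3 was also the highest P15 array for Mir323, Mir379, Mir380, Mir377 and Mir376c. Further microRNA genes in the same region fell by less, Mir127 by 1.40 ± 0.15 and Mir376b by 0.82 ± 0.20.

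Mature sequences of the members that share a seed and of others with large falls are shown with their seeds in capitals, because the cluster is large in genes but diverse in seeds. RefSeq lists 74 mature microRNAs for the 39 genes, with 72 different seeds, and only 2 seeds are shared, 1 by miR-379-3p and miR-411-3p and 1 by miR-376b-5p and miR-376c-5p. All lie on the plus strand of chromosome 12 (GRCm38.p6).
miR-379-3p, chr12:109709102-109709123: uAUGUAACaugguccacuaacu
miR-411-3p, chr12:109710225-109710246: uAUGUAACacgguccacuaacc
miR-376b-5p, chr12:109723471-109723492: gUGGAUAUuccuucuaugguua
miR-376c-5p, chr12:109722733-109722754: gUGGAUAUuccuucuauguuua
miR-323-3p, chr12:109712558-109712578: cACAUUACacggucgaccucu
miR-377-3p, chr12:109740553-109740574: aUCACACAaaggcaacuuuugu
miR-380-3p, chr12:109711842-109711863: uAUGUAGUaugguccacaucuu

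Outside that region, Mir140, a microRNA of chondrocytes that lies within the gene Wwp2, had the largest fall of any microRNA gene. It read 5.96, 5.98 and 5.82 at E18.5 and 2.15, 3.45 and 2.98 at P15 (-3.06 ± 0.31, adjusted p = 1.13e-06). Wwp2 itself fell from 7.16, 7.15 and 7.15 to 5.69, 5.82 and 5.63 (-1.44 ± 0.09). The largest rises were Mir384, from 1.08, 1.36 and 1.41 to 4.65, 4.72 and 5.22 (3.58 ± 0.24), Mir144 of erythroid cells (3.00 ± 0.41) and Mir142 of blood cells in general (2.39 ± 0.24), and Mir451a, the neighbour of Mir144, rose by 1.42 ± 0.22. All of these lay below the dim mark at E18.5, and Mir144 and Mir451a were lowest in P15 array 1, as were the erythroid genes. Their mature sequences, again with seeds in capitals, share no seed with each other or with the cluster members shown. The seed of miR-384-5p is also that of the miR-30 family, whose genes Mir30a (-0.02), Mir30c-2 (0.31) and Mir30e (-0.07) were not called.
miR-140-3p, plus strand, chr8:107551288-107551308: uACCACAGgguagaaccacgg
miR-384-5p, minus strand, chrX:105344332-105344354: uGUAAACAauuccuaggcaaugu
miR-144-3p, plus strand, chr11:78073047-78073066: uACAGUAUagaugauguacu
miR-451a, plus strand, chr11:78073186-78073207: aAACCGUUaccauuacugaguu
miR-142a-5p, plus strand, chr11:87756867-87756887: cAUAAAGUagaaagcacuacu

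**Figure D4:**
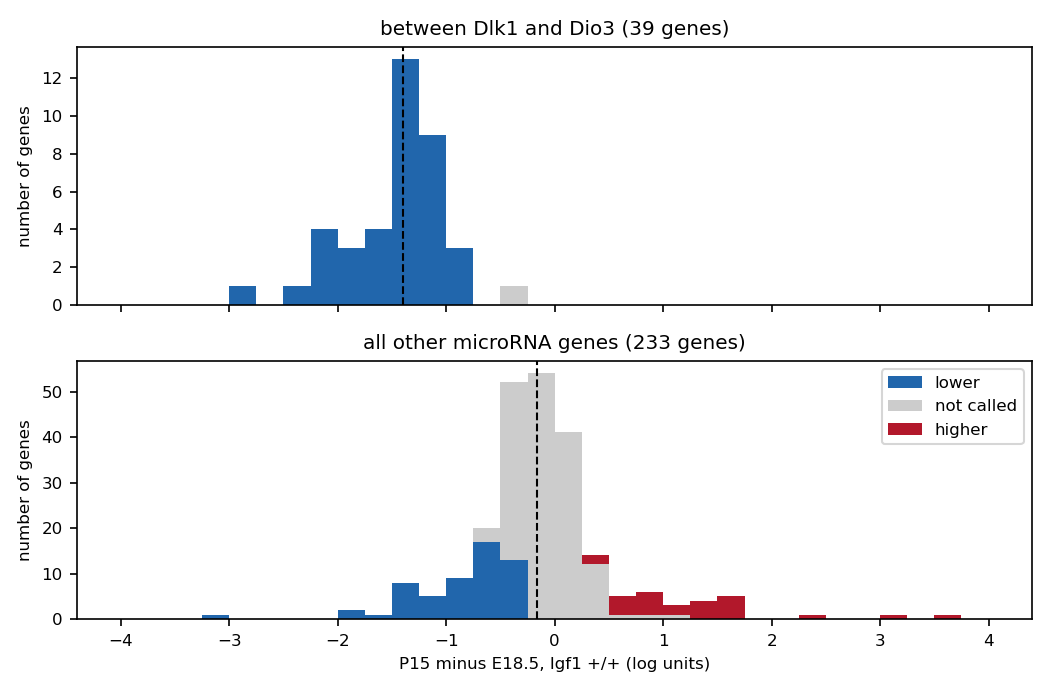
Number of microRNA genes by their P15 minus E18.5 difference in Igf1 +/+ organs, in log units in bins of 0.25, for 39 genes between Dlk1 and Dio3 (top) and 233 others (bottom), in blue lower, grey not called and red higher, with the median as a dashed line. The upper set lies wholly below 0 with a median of -1.39, and the lower set spreads to both sides with a median of -0.17.

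Cell cycle genes, in contrast, were nearly level between the ages. Of 39 genes 3 were higher, 2 lower and 34 not called, with a median of 0.14, and the array averages were 5.67 to 5.73 at E18.5 and 5.70 to 5.97 at P15, highest in P15 array 2. Mki67, the proliferation antigen, read 6.44, 6.56 and 6.47 and then 7.06, 7.48 and 7.18 (0.75 ± 0.22). Rrm2 (0.70 ± 0.21) and Cdc6 (0.55 ± 0.14) rose and Melk (-0.59 ± 0.17) and Gins2 (-0.46 ± 0.12) fell. Without P15 array 2 Mki67 (0.64, adjusted p = 0.0566) and Rrm2 (0.57, adjusted p = 0.0735) were not called. The blood cell and cerebellar lists, which can hold dividing precursors, rose in the same arrays, and their part in the level was not tested. The letters CCAAT, read by NF-Y, and TTTGAA, read at cell cycle promoters, stood in 25 and 14 of 32 promoters of this list, 78.1% and 43.8%, against 38.2% and 15.2% of all.

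Genes of energy supply and of ribosomes went opposite ways by small amounts. Of 41 oxidative phosphorylation genes 32 were higher and none lower, with a median of 0.42. The ages did not overlap for 36 of the 41, against 57.7% of all genes. Cycs (0.92 ± 0.19), Cox5a (0.87 ± 0.17) and Cox5b (0.62 ± 0.09) rose, and so did the muscle and brown fat forms Cox8b (1.04 ± 0.26) and Cox7a1 (0.99 ± 0.24). Of 25 ribosomal protein genes 20 were lower and none higher, with a median of -0.50. Rplp1 went from 8.42, 8.28 and 8.44 to 7.75, 7.71 and 7.39 (-0.77 ± 0.16), and Rpl13 (-0.75 ± 0.13) and Rps14 (-0.72 ± 0.11) fell by similar amounts, while Rps4x (0.01) was not called, although the mean of its probe sets differed by -0.55 (adjusted p = 0.00296). Many ribosomal protein genes have near-identical pseudogenes, so their probes can read more than 1 locus.

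Metal-binding and antioxidant genes were higher in 12 of 36 cases and lower in 8, with a median of -0.04 that turned to 0.19 in the values as deposited. The metallothioneins rose, Mt2 from 4.70, 4.38 and 4.79 to 7.06, 6.71 and 6.96 (2.29 ± 0.17), Mt1 by 1.46 ± 0.15 and Mt3 by 1.09 ± 0.12, with Gpx1 (1.25 ± 0.22), Gsr (1.08) and Gclm (0.99). Gpx7 (-1.42 ± 0.17), Fmo2 (-1.12 ± 0.23) and Nqo1 (-1.08) fell, and Sod1 (-0.08) and Cat (-0.07) were not called.

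The clock and thyroid hormone genes moved upward on the whole. Of 16 circadian genes 11 were higher and none lower, with a median of 0.35, led by the nuclear receptors Nr1d1 (from 4.30, 4.09 and 4.20 to 6.47, 5.76 and 6.49, 2.04 ± 0.22) and Nr1d2 (1.05 ± 0.12) and by Dbp (0.94 ± 0.21). P15 array 2 was the lowest P15 array for Nr1d1, Nr1d2 and Dbp. The sources used here do not say at which hour tissue was taken. Of 14 thyroid axis genes 8 were higher and 4 lower, with Klf9, a direct target of the hormone receptor, higher by 1.19 ± 0.09, the transporter Slco1c1 by 1.77 ± 0.10 and the carrier Ttr by 2.31 ± 0.53. The receptor Thrb fell by 0.39, a call lost without E18.5 array 1 (adjusted p = 0.0574) or P15 array 3 (adjusted p = 0.0598), and Thra (-0.06) was not called. Ttr is made in large amounts by the choroid plexus, and it read 5.36, 6.66 and 5.38 at E18.5, so its arrays spread more than those of most genes.

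The remaining lists changed less or in a few members, where 19.7% of all genes were higher and 21.9% lower. Early response genes were higher in 6 of 27 cases and lower in 5, with Dusp1 (1.23 ± 0.19) and Fos (0.75 ± 0.21) higher, Ccn2 (-1.21 ± 0.11) lower and Egr1 (0.19) not called. Endothelial and pericyte genes were higher in 6 of 25 and lower in 7, with the barrier genes Slco1a4 (0.95 ± 0.13) and Mfsd2a (0.45 ± 0.12) of brain vessels higher, Emcn lower by 0.62 ± 0.12, and Pecam1 (0.03) and Cdh5 (-0.26) not called. Cdh5 was called without P15 array 2 (-0.36, adjusted p = 0.0296). Sterol and fatty acid synthesis genes were higher in 2 of 24 and lower in 8, none by more than 0.65. Chromatin genes were higher in 3 of 28 and lower in 7, the largest being Smarca1 (-1.16 ± 0.09), and Dnmt1 (0.12) and Ezh2 (0.16) were not called. Heat shock and reference genes were higher in 4 of 15, none by more than 0.47, and Actb (0.13), Ppia (0.04) and Tbp (0.17) were not called.

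Markers of other tissues near the ear were read for the same reason as those of cerebellum and marrow. Adipocyte genes were higher in 7 of 20 cases and lower in none, and the brown fat gene Ucp1 read 5.48, 4.02 and 4.49 at P15, with array 1 highest and a difference of 2.22 ± 0.85 (adjusted p = 0.047). That call was lost without any 1 of the 6 arrays, with an adjusted p of 0.0509 to 0.158. The call of Adipoq was lost in the same way (adjusted p = 0.0509 to 0.0881). Cidea lost its call without array 1 or 3 of either age, with an adjusted p of up to 0.124. Mucosal genes were higher in 3 of 28 cases and lower in 11, and those 3, Lcn2, Ltf and Lyz1, are also neutrophil or macrophage genes. The keratins Krt5 (-1.47 ± 0.31), Krt8 (-1.42 ± 0.14) and Krt19 (-1.41 ± 0.19) fell, and Bpifa1 of airway mucosa was not called (0.56 ± 0.29). Motile cilia genes were higher in 2 of 28 cases and lower in 3, and Foxj1 (0.11) was not called. Of the sex-linked genes Xist read 7.87, 7.61 and 7.43 at E18.5 and 7.48, 5.34 and 7.48 at P15 and was not called (-0.87 ± 0.80).

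Some abundant genes stayed level to within the error. The 5 genes with the narrowest interval around 0 among those above the 75th percentile of mean level were Abce1 (0.01 ± 0.06), Rap2a (interval -0.13 to 0.13), Slc38a2 (0.01 ± 0.06), Crkl (-0.01 ± 0.06) and Caprin1 (-0.01 ± 0.06). These genes follow the scaling: with only the array medians subtracted Abce1 stood at -0.16 and Slc38a2 at -0.31 (adjusted p = 0.0116), and as deposited Rap2a stood at 0.19 and Crkl at 0.17. Slc38a2 read 7.79, 7.77 and 7.77 at E18.5 and 7.77, 7.80 and 7.78 at P15. Dicer1, the enzyme that cuts microRNA precursors, was at 6.58, 6.53 and 6.55 and then 6.62, 6.61 and 6.61 and was not called (0.06 ± 0.06).

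Whether the change with age differed between the genotypes was tested as an interaction. The Igf1 null change minus the wild-type change was called higher for 3 genes, 0.015% of all, and lower for 26 genes, 0.13%, and 14 of these 26 stand in the muscle list. Mylpf, a fast myosin light chain, read 5.56, 5.90 and 6.01 and then 5.91, 5.86 and 5.95 in the wild type (0.09 ± 0.13, not called), while it fell by 1.39 in the null, a difference between the changes of -1.47 ± 0.19 (adjusted p = 0.0079). Actn3 (-1.88 ± 0.25), Ampd1 (-2.04 ± 0.30), Tnnc2 (-1.53 ± 0.22) and Yipf7 (-1.46 ± 0.19) differed the same way. The 3 in the other direction were Erich6b (1.32 ± 0.15), which was dim at both ages, Sgms2 (0.90 ± 0.14) and Pde1c (0.86 ± 0.15). On the third principal component, E18.5 null arrays 2 and 3 lay at 16.3 and 18.8 and the other E18.5 arrays between -9.5 and -8, and P90 wild-type arrays 1 and 2 lay at 13.5 and 17 and the other P90 arrays between -25 and -12. None of these calls was left in the values as deposited. A fit without those 4 arrays, which lie apart from the others of their age, leaves a single null E18.5 array. It therefore cannot decide these calls. Without a single array the count of lower genes ran from 3, without wild-type P15 array 1, to 56, without null E18.5 array 3. For the largest wild-type changes no difference between genotypes was called: Neurod1 changed by 5.29 in the null, Ngp by 4.92, Matn1 by -5.62 and Oc90 by -4.11.

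The next interval, P15 to P90, is set beside the first, and both share the P15 wild-type arrays. An error in the P15 mean enters the 2 differences with opposite signs. It therefore favours a fall after a rise and a rise after a fall. From P15 to P90, 1611 genes were higher, 8.08%, and 1950 lower, 9.78%. These counts rest on few arrays: without P15 array 2 they were 487 and 784, without P90 array 2 they were 516 and 861, and without P90 array 3 they were 2283 and 2612. Without the 4 arrays that lie apart from others of their age on the third component, which include P90 arrays 1 and 2, they were 159 and 257, and the single P90 array left was taken to vary like the other groups. They were 2768 and 5002 with only the array medians subtracted and 5086 and 481 in the values as deposited. Of the 3923 genes that rose to P15, 332 rose again, 510 fell back and 3081 were not called in the second interval. Of the 4360 that fell, 590 fell again, 389 rose and 3381 were not called. The cerebellar list had a median of 2.31 in the first interval and 0.15 in the second, and the neutrophil list had 2.96 and then 0.22, which turned to -0.14 without those 4 arrays.

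Other lists went on changing after P15. Cell cycle genes fell after P15 in 27 of 39 cases, with a median of -0.65, for example Mki67 by 0.75. B cell genes fell in 17 of 23 cases, with a median of -1.04, and osteoclast genes fell in 11 of 15, with a median of -0.72. Matrix assembly genes fell again in 23 of 30 cases, with a median of -0.64, among them Fbn2 (-2.34 and then -1.54), and Col2a1 fell by 1.89 and then by 1.57. Circadian genes rose in 8 of 16 cases, and muscle genes in 23 of 51. Without the 4 arrays the lists had medians of -0.77 for cell cycle, -1.13 for B cell, -0.72 for osteoclast and -0.59 for matrix genes, and 7, 11, 1 and 6 of their members were called lower. Circadian genes then rose in 2 cases and muscle genes in 6.

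The genes with the largest moves of each order were, for 2 rises, Exph5 (1.18 and then 1.34), Tcap (1.19 and 1.20), Lncpint (1.29 and 1.11), Mb (1.56 and 1.10) and Asb14 (1.23 and 1.06). For a rise and a fall they were Stfa2 (2.52 and -2.25), the glycine receptor gene Glra2 (2.49 and -2.06), Bfsp2 (1.93 and -1.92), Stfa3 (2.61 and -1.84) and Ifi214 (3.00 and -1.84). For a fall and a rise they were Catspere2 (-1.78 and 1.74), Krt5 (-1.47 and 1.15), Fmo2 (-1.12 and 1.21), Mir341 (-1.04 and 1.01) and Flnc (-0.96 and 1.04). For 2 falls they were Mia (-1.89 and -1.70), Capn6 (-3.27 and -1.61), Col2a1 (-1.89 and -1.57), Fbn2 (-2.34 and -1.54) and Loxl4 (-1.37 and -1.32). All were picked for the size of their moves, and the shared P15 arrays favour the 2 orders that turn back.

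**Figure D5:**
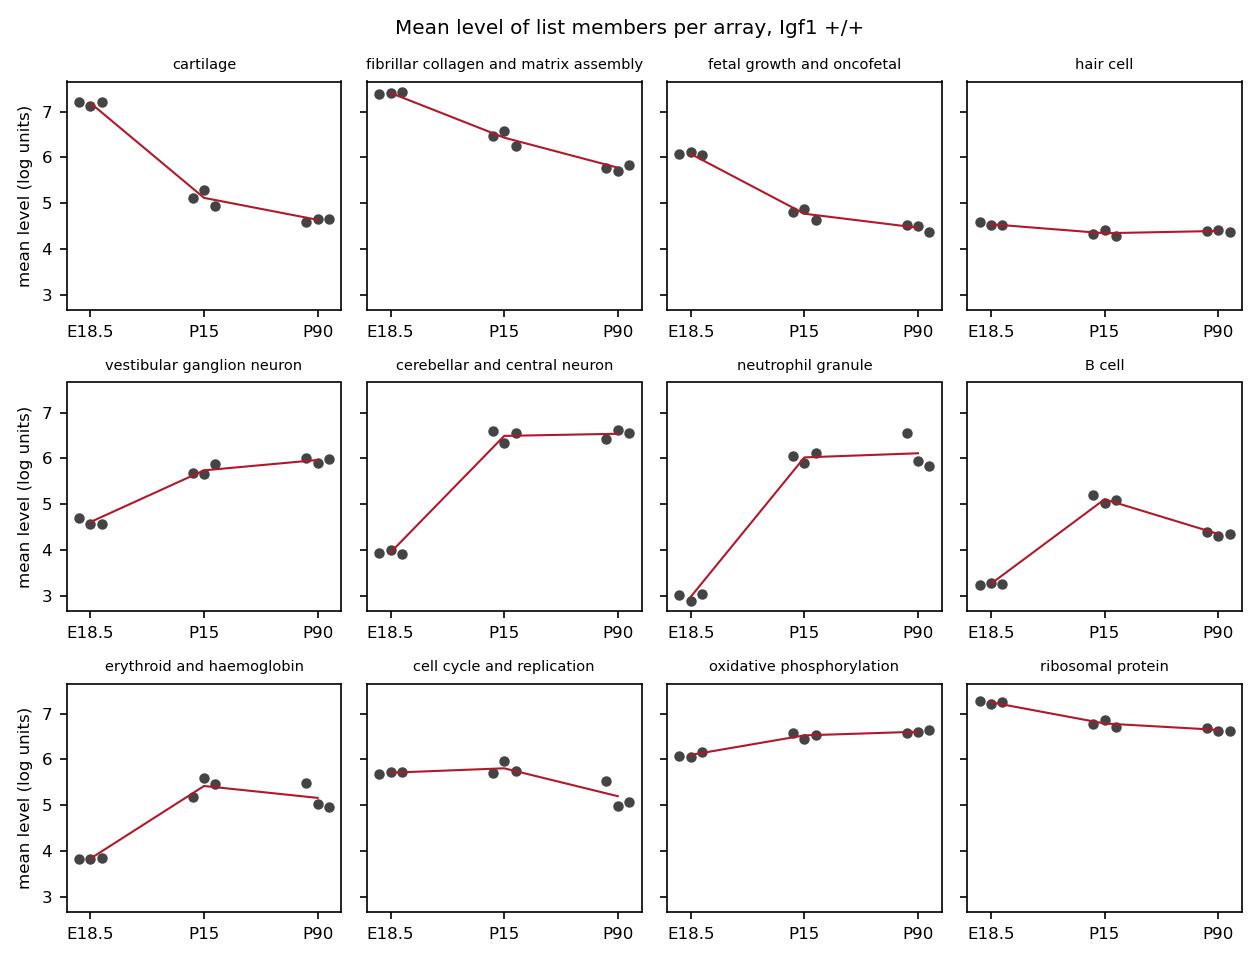
Mean level of the members of 12 gene lists in each Igf1 +/+ array at E18.5, P15 and P90 (points, 3 arrays per age) in log units, with a line through the mean of each age. The cerebellar list goes from 3.91 to 4.00 at E18.5 to 6.33 to 6.59 at P15 and 6.43 to 6.62 at P90, while the cartilage list falls from 7.13 to 7.22 to 4.94 to 5.28 and 4.59 to 4.66.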

How the data were processed

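The deposited values, read here as natural log values because of their range, are probe set summaries of Affymetrix Mouse Gene 1.1 ST arrays, made by the authors from total RNA that was amplified with whole-transcript sense target labelling, per the labels' protocols. The summarisation, background correction and log base were not given in the sources used here. No conversion was made. Array medians ran from 3.88 to 4.82 as deposited, so the values were quantile-normalised over all 18 arrays. Their number, 3 per group, limits the precision.

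Of 28853 probe sets, the platform annotation lists 23410, of which 21789 carry 1 gene symbol and 1621 several. The 5443 others are unnamed here. Symbols were updated through RefSeq for 21698 probe sets, and probe sets with several symbols were not used. The probe set with the highest mean stood for a gene, which gave 19938 genes, 999 of them with several probe sets.

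A linear model with 6 group means was fitted with limma 3.58.1 in R 4.3.3 (lmFit, contrasts.fit, eBayes) without an intensity filter, and p-values were adjusted by Benjamini-Hochberg over all genes at a threshold of 0.05. A second rule also asked for a difference of 1 log unit. Lists are described by counts and medians, without a set test. Promoters run from 250 bases before to 50 after a start. Alternatives covered the scaling, an intensity filter at the 20th percentile, the mean of probe sets, the arrays fitted (with a fit without 4 arrays that an earlier analysis found apart from others of their age on the third principal component), a Y-linked covariate, a replicate block, the variance model, a test against a difference of 0.5 and each array left out.

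The comparison, its lists and pairs were chosen with earlier results of these data known. Genes are named by this rule: the 15 largest rises and falls among called genes without overlap and with a higher group mean at or above the median gene; in each list the 6 largest called differences, the 2 largest called against the list's median and up to 3 uncalled defining members; both genes of each pair; the 5 smallest p-values of the genotype difference in each direction; the 5 largest moves for each order of change over the 3 ages; the 5 genes above the 75th percentile with the narrowest interval around 0; and the IGF system. Some genes that the rule picks, such as Phex, Ermn, Gabrb1 and Junb, are not given in the text. Further list members, the microRNA genes and the genes named for single arrays were chosen after their values were seen. The members shown were therefore not fixed by the rule alone.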

Additional observations from a re-analysis of the deposited data

Results flagged for a closer look

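In 13 of the genes named, the change from E18.5 to P15 differed between the genotypes in limma's interaction test at an adjusted p below 0.05. Given as the null change minus the wild-type change, in log units, the fast-muscle genes stood at -2.04 for Ampd1, -1.88 for Actn3, -1.60 for Ckm, -1.53 for Tnnc2, -1.47 for Mylpf, -1.46 for Yipf7, -1.41 for Atp2a1, -1.37 for Tnni2 and -1.26 for Acta1. Myl4, the embryonic and atrial light chain, stood at -0.96. In the other direction Erich6b stood at 1.32, Sgms2 at 0.90 and Pde1c at 0.86. In the values as deposited, no gene was called in either direction. Of the 4 arrays that lie apart from others of their age on the third principal component, 2 are E18.5 null arrays. A fit without those 4 leaves a single E18.5 null array, so it cannot decide these calls.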

How the results depend on the processing

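Of the 529 genes given a value under each setting, Scd2, a fatty acid desaturase gene, was the only called one whose wild-type change turned its sign, to -0.02 with only the array medians subtracted. Under that scaling the uncalled Slc12a2 stood at -0.18, Abce1 at -0.16, Slc38a2 at -0.31 and Sparc at -0.21. As deposited, Rap2a stood at 0.19, Crkl at 0.17 and Irs2 at 0.26, and with the mean of all probe sets Rps4x stood at -0.55. Calls were lost for 49 of the 529 genes as deposited, 138 in limma's treat test against 0.5, 11 with the medians subtracted and 17 to 25 with 1 wild-type array left out. List medians turned their sign as deposited for supporting cells (0.07), macrophages (0.14), sterol synthesis (0.11), antioxidants (0.19), endothelium (0.07), muscle (0.06) and motile cilia (0.04), and with the medians subtracted for chromatin (-0.07) and fibrocytes (-0.13). With 1 array left out the medians ran from -0.11 to 0.01 for macrophages and from -0.07 to 0 for antioxidants, and muscle stood at 0.06 without E18.5 wild-type array 2 and fibrocytes at -0.02 without P15 wild-type array 1. The sex-linked list had a median of 0 and has no direction.

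The treat test left 1392 genes higher and 942 lower at P15, and 1626 were lower as deposited. With 1 array left out, 3464 to 3659 genes were higher and 3686 to 3904 lower, and 1250 to 1332 and 698 to 801 by at least 1 log unit. Genes whose change differed between genotypes numbered 0 higher and 0 lower as deposited and in the treat test. The fit without the 4 arrays apart from others of their age on component 3 leaves a single null E18.5 array and cannot decide their number. Such genes numbered 1 and 4 with only the compared arrays and 7 and 56 with a trended, robust variance. They numbered 5 higher with the medians subtracted and 14 lower with the Y-linked covariate. They numbered 1 to 7 higher and 3 to 56 lower with 1 array left out, beside 1697 at an unadjusted p below 0.05. From P15 to P90, 2768 were higher and 5002 lower with the medians subtracted, 5086 and 481 as deposited, 404 and 637 with only the compared arrays, 159 and 257 without the 4 arrays and 8 and 54 in the treat test, with 487 to 2283 and 784 to 2612 with 1 array left out. The causes were not tested.

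With the replicate number as a block, 3829 genes were higher and 4195 lower at P15, 3 and 21 differed between genotypes, and 1342 and 1718 were higher and lower at P90. Deviations of same-numbered wild-type E18.5 and P15 arrays correlated at 0.02, 0.03 and -0.01. The other groups were not compared in this way. With 3 arrays per group these values cannot decide whether same-numbered arrays share more than a number. The array files give no background, so a level near the dim mark has no measured limit.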
